A study of Mus musculus with 4 samples.

Results

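The netrins and their receptors are described here across 2 populations of mouse retinal neurons. The members were 10 genes taken by gene family: the netrins Ntn1, Ntn4, Ntng1 and Ntng2, and the receptors Dcc, Neo1, Unc5a, Unc5b, Unc5c and Unc5d. All probe sets annotated to exactly 1 of these genes were taken, which gave 24 of 45037 probe sets, and the 10 genes are among 18193 with such a probe set. MP amacrine cells were CFP-positive, VC1.1-positive neurons, and MP bipolar cells were CFP-positive, VC1.1-negative neurons. Both came from retinas of postnatal day 6 pups of mixed C57Bl6 x CD1 strain, whose fathers carried the MP transgene and whose mothers did not. Each population had 2 biological replicates from different litters, of about 1000 cells each, hybridised to 1 Affymetrix array per replicate. VC1.1 is an antibody that binds amacrine and not bipolar cells. The labels do not name the promoter of the MP transgene. Both groups were sorted as CFP-positive cells, with no CFP-negative group beside them. The labels speak of litters but not of the number of pups pooled.

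Secreted netrins are guidance cues related to laminins. A growing axon reads Ntn1 through Dcc as attraction, and through Unc5 receptors, alone or together with Dcc, as repulsion. In the retina Ntn1 is best known for guiding ganglion cell axons out at the optic disc, where they express Dcc. The G netrins are held on the membrane by a lipid anchor and bind leucine-rich repeat partners at synapses in place of Dcc and Unc5.

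The values are probe set intensities on a linear scale. Differences are given as log2 fold change, MP amacrine minus MP bipolar, of log2(intensity + 16), which understates the difference of dim genes. Each gene was read from its brightest probe set, and genes entered the test if this exceeded the median of the array, 44.5 to 47.1, on at least 2 of the 4 arrays. Most markers measured followed the labels of the sorted populations. Of 8 tested amacrine markers, 7 were called higher in MP amacrine cells, beside 6.54% of all tested genes. Of 5 tested bipolar markers, 4 were called higher in MP bipolar cells, beside 6.92%. Among the called ones, Tfap2b, Tfap2c, Neurod6 and Fezf2 entered the test only through the population where they are high, which favours a call. Intensities summed over 9 amacrine markers were 6142 and 6125 on the MP amacrine arrays, against 504.2 and 538.2 on the MP bipolar arrays. Over the 7 bipolar markers measured they were 3071 and 2737 on the MP amacrine arrays, against 10320 and 10660 on the MP bipolar arrays. Gad2, on the amacrine list, overlapped between the groups, at 169.1 and 215.5 in MP amacrine and 131.1 and 190.5 in MP bipolar cells. Isl1, on the bipolar list, was higher on both MP amacrine arrays, at 1055 and 925.4 against 574.5 and 684.3, and did not pass (adjusted p = 0.0835, limma). The bipolar markers Trpm1 and Bhlhe23 lay below the array median, between 17.28 and 26.68, on all 4 arrays. MP amacrine replicate 2 stood apart in its Gapdh control: the log2 difference between 3-prime and 5-prime probe sets was 3.21, against 1.78 on the other MP amacrine array and at most 2 on the MP bipolar arrays. With 2 arrays per group, their number limits how precise every value is, and RNA of sorted pools cannot tell fewer expressing cells from less RNA per cell.

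Unc5d was the member with the clearest difference, and it was lower in MP amacrine cells. Ntn4 was higher in MP amacrine cells, with less support. The tested receptors Dcc, Neo1 and Unc5b, and Ntn1 and Ntng1 among the ligands, did not pass the test, and Ntng2, Unc5a and Unc5c were too dim to test. Of the 7 tested members, 1 was higher in MP amacrine cells, where 6.54% of 11583 tested genes were, and 1 was higher in MP bipolar cells, where 6.92% were (limma, Benjamini-Hochberg adjusted p under 0.05, n = 2 per group). In either direction 2 of 7 members were called, beside 13.5% of all tested genes, which is about 1 in 7, so the number of calls does not set the family apart. On all 7 both arrays of one population lay above both of the other, as on 53.3% of all tested genes. Ntn1 and Unc5b entered the test only through the MP bipolar arrays, where they are higher, which favours such separation, so nothing is read from this count. The median log2 fold change of the 7 tested members was -0.30, which is the value of Ntn1, beside -0.03 over all tested genes. The median absolute log2 fold change was 0.395 over the 7 members and 0.26 over all tested genes.

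**Figure D1:**
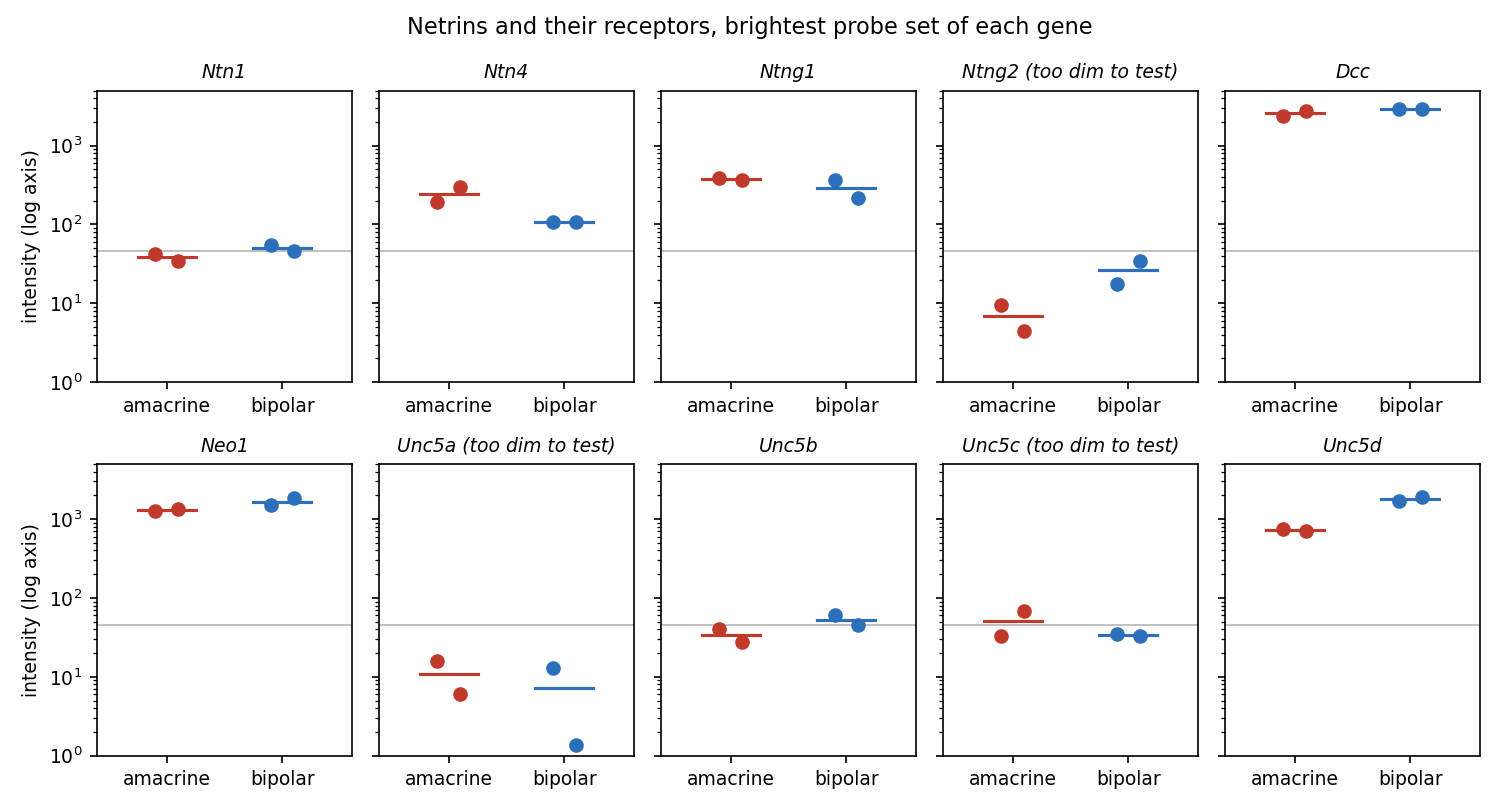
Intensity (log axis) of the brightest probe set of each of the 10 genes on each array, MP amacrine left and MP bipolar right, with 1 point per array and a line at the mean of 2 arrays; the grey band spans the array medians, 44.5 to 47.1. Unc5d sits at 741.4 and 707.7 in MP amacrine and at 1694 and 1909 in MP bipolar cells. Ntn4 and Ntng1 are the tested genes on which both MP amacrine arrays lie above both MP bipolar arrays, and of these only Ntn4 passed. Heights are not comparable between panels, because each gene has its own probe set.

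Among the secreted netrins, Ntn4, a netrin of basement membranes that binds laminin, had intensities of 190.8 and 302.4 on the MP amacrine arrays, against 106.3 and 106.8 on the MP bipolar arrays. Both MP amacrine arrays lay above both MP bipolar arrays, and MP amacrine replicate 2 was the highest of the 4. The mean was 2.31 times that of MP bipolar cells, and the log2 fold change was 1.07 (SE 0.26, 95% interval 0.46 to 1.67, adjusted p = 0.0316, limma). The call depended on single arrays: the adjusted p was 0.0929 without MP amacrine replicate 2, where the log2 fold change was 0.755. It was 0.141 without MP bipolar replicate 1, 0.153 without MP bipolar replicate 2, 0.133 with no filter on dim genes, and 0.102 with the mean of both probe sets, where the log2 fold change was 0.551. When each probe set of the array was tested singly, the same Ntn4 probe set did not pass (adjusted p = 0.06). The other Ntn4 probe set was near the bottom of the scale on every array, at 2.71 and 1.58 in MP amacrine and 2.40 and 1 in MP bipolar cells, and it gave no test. For neither Ntn4 probe set is the listed sequence a RefSeq transcript of Ntn4.

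Markers of other cells differed between the arrays to differing degrees. The 5 microglial markers summed to 1046 and 3540 in MP amacrine and 1366 and 237.2 in MP bipolar cells, so the groups overlapped. Most of that sum was Ctss, at 567.4 and 2665 in MP amacrine and 1003 and 2.27 in MP bipolar cells. Of the 3 tested microglial genes, Csf1r was called higher in MP amacrine cells, at 383 and 663 against 256.5 and 196.6. MP amacrine replicate 2 was the highest array for the microglial sum, as it was for Ntn4.

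The 6 endothelial and pericyte markers summed to 286.2 and 324.2 in MP amacrine and 220.7 and 200.8 in MP bipolar cells. Of the pericyte genes, Pdgfrb was called higher in MP amacrine cells, at 66 and 69.62 against 4.01 and 9.56, while Rgs5 was at 66.08 and 63.08 against 80.79 and 73.24 and did not pass. Pdgfrb entered the test only through the MP amacrine arrays, where it is high. Of the endothelial genes, Cdh5 (50.15 and 54.89 in MP amacrine, 38.42 and 40.08 in MP bipolar cells) and Kdr (78.93 and 116 in MP amacrine, 68.5 and 57.13 in MP bipolar cells) did not pass. Cldn5 overlapped, and Pecam1 was near the floor, at 1 on both MP amacrine arrays and at 2.56 and 2.22 on the MP bipolar arrays.

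The 8 markers of Müller glia and progenitors summed to 4347 and 4256 in MP amacrine and 2047 and 2686 in MP bipolar cells. Glul was the largest part of the sum on every array. The difference between the groups lay mainly in Vim, at 1672 and 1518 in MP amacrine and 108.2 and 233 in MP bipolar cells. Of 6 tested, Vim, Hes5 and Slc1a3 were called higher in MP amacrine cells, beside 6.54% of all tested genes. Hes5 and Slc1a3 entered the test only through the MP amacrine arrays, where they are high, which favours a call. Clu, at 188.5 and 128.4 in MP amacrine and 261.2 and 323.4 in MP bipolar cells, and Glul, at 2103 and 1870 against 1594 and 1937, did not pass, and Sox9 was too dim to test. The 4 horizontal cell markers summed to 807.4 and 550.7 in MP amacrine and 323.5 and 236.3 in MP bipolar cells. Calb1 was the largest part on MP amacrine replicate 1, at 516.6 and 39.47 in MP amacrine and 19.19 and 16.96 in MP bipolar cells. Onecut2 and Lhx1 overlapped, and the 2 tested genes, Onecut1 and Onecut2, did not pass. The sums of 4 astrocyte markers, 98.77 and 130.4 in MP amacrine and 116.9 and 122.7 in MP bipolar cells, overlapped, as did those of photoreceptor markers, 11810 and 7050 in MP amacrine and 9353 and 10680 in MP bipolar cells. Of 7 tested photoreceptor markers, 1 was called higher in MP bipolar cells, beside 6.92% of all tested genes. This was Crx, at 1022 and 766.2 in MP amacrine and 1877 and 1621 in MP bipolar cells. Nrl and Pde6b were higher on both MP amacrine arrays and did not pass. Sag and Gngt1 overlapped, at percentiles 97.9 to 99.6 over the 4 arrays. The part of these cells in the Ntn4 value was not tested.

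Ntn1, the classical secreted cue, was dim in both populations, with 42.25 and 34.05 on the MP amacrine arrays and 55.18 and 45.87 on the MP bipolar arrays. The groups did not overlap, but only the MP bipolar arrays lay above their array medians. The log2 fold change of -0.30 had a 95% interval of -0.78 to 0.19 (adjusted p = 0.459, limma). Its other probe set lay between 15.07 and 19.29 on all 4 arrays, below every array median.

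The G netrins gave different pictures by probe set. Ntng1, which binds the synaptic partner Lrrc4c, had 386.7 and 366.3 on the MP amacrine arrays, against 364.7 and 218 on the MP bipolar arrays, for the brightest of its 4 probe sets. MP bipolar replicate 2 was the low array, and the log2 fold change of 0.39 did not pass (95% interval -0.25 to 1.04, adjusted p = 0.459, limma). The next probe set, the one whose listed sequence is a RefSeq transcript of Ntng1, was nearly level, at 311.4 and 282.3 in MP amacrine and 258.8 and 258.7 in MP bipolar cells. The third (1441634_at) separated the populations, with 109 and 188.5 in MP amacrine and 55.65 and 54.98 in MP bipolar cells.

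Tested singly among 23648 probe sets, that Ntng1 probe set differed by 1.17 on the log2 scale (SE 0.28) and passed (adjusted p = 0.0483, limma). It was the 1 of 14 tested member probe sets called higher in MP amacrine cells, where 4.52% of all tested probe sets were, and 2 of the 14 were called in either direction, beside 9.46%. As for Ntn4, MP amacrine replicate 2 was its highest array, and without that array the log2 fold change was 0.81 (adjusted p = 0.11). Without MP bipolar replicate 1 the adjusted p was 0.206 and without MP bipolar replicate 2 it was 0.233. All 3 tested Ntng1 probe sets had a positive sign, and which transcripts each one reads was not analysed here. The fourth, between 4.95 and 12.17 on all arrays, was too dim to test.

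Ntng2, which binds Lrrc4, lay below the array median on every array and was not tested. Its brightest probe set had 9.55 and 4.41 on the MP amacrine arrays, against 17.74 and 34.85 on the MP bipolar arrays, and its other probe set had 2.66 and 2.40 against 5.42 and 7.16. Both probe sets were higher on both MP bipolar arrays. The log2 fold change of the brightest, -0.86 with the offset of 16, was -1.78 with an offset of 1 and -0.342 with an offset of 64, and with no filter on dim genes its adjusted p was 0.174 (limma).

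**Figure D2:**
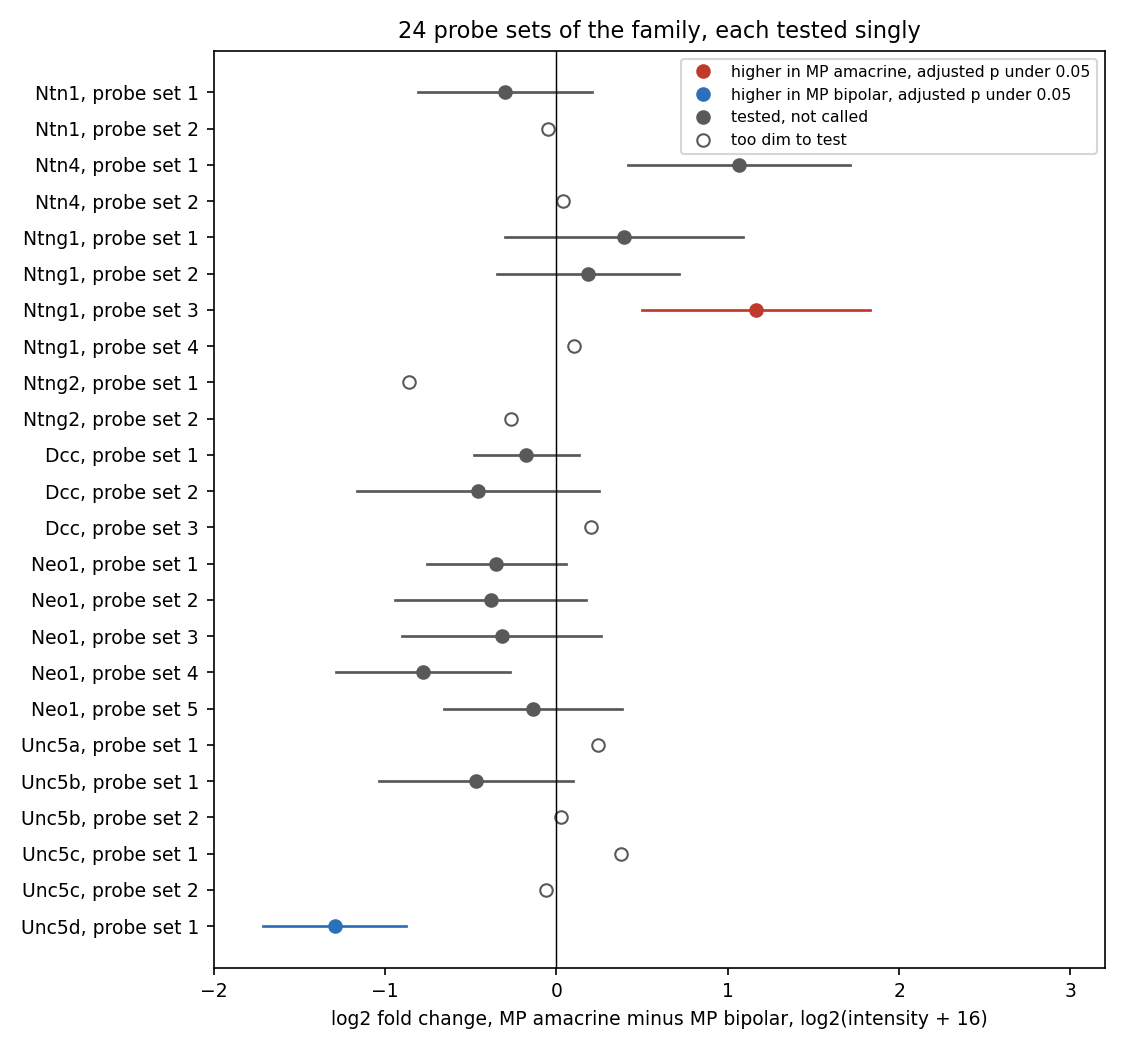
Log2 fold change of log2(intensity + 16), MP amacrine minus MP bipolar, for each of the 24 probe sets, numbered within a gene by falling mean signal, with 95% intervals for the 14 that were tested. Ntng1 probe set 3 (1.17) and Unc5d (-1.29) are the called ones, and all 5 Neo1 probe sets lie left of 0.

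Among the receptors, Dcc, the immunoglobulin-family receptor for attraction to Ntn1, was bright in both populations. Its brightest probe set had 2394 and 2780 on the MP amacrine arrays, against 2917 and 2909 on the MP bipolar arrays, and was among the top 2% of each array, at percentiles 98.3 to 99. The MP bipolar arrays were both higher, by little: the log2 fold change was -0.17 with a 95% interval of -0.46 to 0.11 (adjusted p = 0.465, limma). A further Dcc probe set, with 599.6 and 1019 in MP amacrine and 1253 and 932.8 in MP bipolar cells, overlapped between the groups (log2 fold change -0.46, 95% interval -1.16 to 0.25). The one whose listed sequence is a RefSeq transcript of Dcc was dim, between 8.91 and 17.31 on all arrays, although the gene's other probe sets were bright. Ganglion cells, which use Dcc, were tracked by 8 measured markers that summed to 3803 and 1867 in MP amacrine and 2759 and 3622 in MP bipolar cells. Without Thy1, which was at 805.8 and 1455 in MP amacrine and 2462 and 3415 in MP bipolar cells and was called higher in the bipolar cells, the other 7 summed to 2998 and 412 in MP amacrine and 296.8 and 206.8 in MP bipolar cells. Nefl (1102 and 87.51 in MP amacrine, 68.62 and 45.72 in MP bipolar cells) and Nefm (1631 and 135.7 in MP amacrine, 47.71 and 34.96 in MP bipolar cells) were highest on MP amacrine replicate 1, and neither passed. The part of ganglion cells in the Dcc signal was not tested.

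Neo1, or neogenin, is the close relative of Dcc and also a receptor for repulsive guidance molecules. Its brightest probe set had 1268 and 1336 on the MP amacrine arrays, against 1514 and 1827 on the MP bipolar arrays. All 5 probe sets were tested, all 5 had a negative sign, and on 4 of them both MP bipolar arrays were above both MP amacrine arrays. None passed: the gene's log2 fold change was -0.35 (95% interval -0.74 to 0.04, adjusted p = 0.249, limma). The widest separation was on the fourth probe set, with 82.74 and 96.11 in MP amacrine and 170.8 and 158.1 in MP bipolar cells (log2 fold change -0.78, 95% interval -1.28 to -0.27, adjusted p = 0.0766, limma). The 5 probe sets read 1 gene in the same 4 RNA samples, so their common sign is not 5 separate observations.

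The Unc5 receptors carry a death domain in their cytoplasmic tail and signal repulsion. Unc5d, which also binds the adhesion protein Flrt2, had 741.4 and 707.7 on the MP amacrine arrays, against 1694 and 1909 on the MP bipolar arrays. The MP bipolar mean was 2.49 times the MP amacrine mean, and within each group the 2 arrays lay close together. On the log2 scale the difference was -1.29 (SE 0.17, 95% interval -1.69 to -0.89, adjusted p = 0.0019, limma). By p-value Unc5d was number 485 of the 11583 tested genes, and 7.79% of them had an absolute log2 fold change at least as large. Unc5d remained called in all 17 alternative analyses at the level of genes, with a log2 fold change between -1.38 and -1.21 and an adjusted p between 0.000103 and 0.0252. It has 1 probe set, which tested singly passed as well (adjusted p = 0.00555), but not without MP bipolar replicate 2 (adjusted p = 0.0834, log2 fold change -1.21). Of all tested probe sets, 4.94% were called higher in MP bipolar cells. The sequence listed for the Unc5d probe set is not a RefSeq transcript of Unc5d. Of the 24 member probe sets, 6 have a RefSeq transcript of their gene as listed sequence.

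Unc5b, the Unc5 receptor known from blood vessels as well as neurons, had 40.5 and 27.52 on the MP amacrine arrays, against 60.43 and 45.58 on the MP bipolar arrays. The groups did not overlap, and the log2 fold change of -0.47 did not pass (upper end of the 95% interval 0.07, adjusted p = 0.27, limma). Unc5c, the receptor altered in the rostral cerebellar malformation mouse, had 33.4 and 68.51 in MP amacrine and 34.94 and 32.59 in MP bipolar cells. Only MP amacrine replicate 2 lay above its array median, so Unc5c was not tested, and without that array its log2 fold change was -0.0102 in place of 0.38. Unc5a was dim throughout, with 15.94 and 6.09 in MP amacrine and 12.92 and 1.35 in MP bipolar cells, and the groups overlapped. Unc5b was thus the only other Unc5 gene tested. It had the sign of Unc5d without passing, and it entered the test only through the MP bipolar arrays, where it is higher. Whether the Unc5 genes share a direction cannot be read from this.

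Over all 24 probe sets, 14 were tested and 10 were too dim. The groups did not overlap on 12 of the 14, with MP amacrine higher on 4 and MP bipolar higher on 8; over all tested probe sets the groups did not overlap on 50.7%, with MP amacrine higher on 23.3% and MP bipolar higher on 27.4%. Of those 12, 4 belong to Neo1 and 3 to Ntng1. The tested probe sets of Ntn1 and Unc5b entered only through the MP bipolar arrays, where they are higher. That favours such separation, so nothing is read from this count. For a single gene the smallest two-sided p of an exact permutation test of 2 against 2 arrays is 0.333, so every p here rests on the spread that limma shares across genes.

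**Figure D3:**
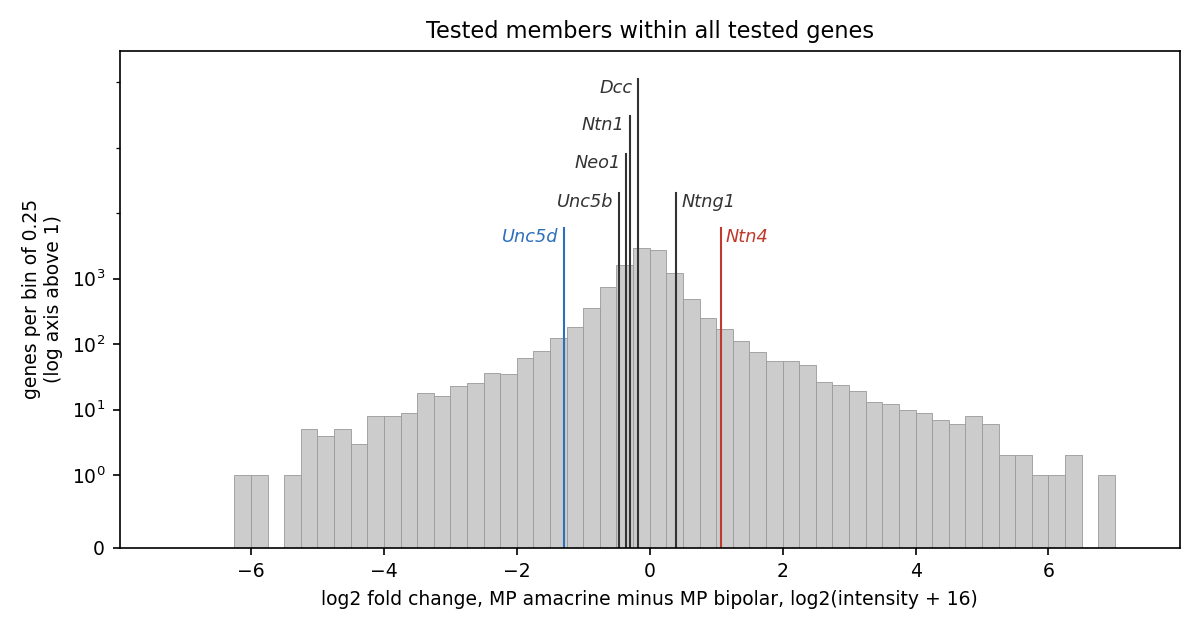
Number of tested genes (log axis above 1) per bin of 0.25 in log2 fold change, MP amacrine minus MP bipolar, for all 11583 tested genes, with lines at the 7 tested members. Ntn4 (1.07) and Unc5d (-1.29) lie outside the centre, which holds the other 5 members between -0.47 and 0.39, and well inside the ends of the distribution.

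Partners and effectors of the family were taken from 7 lists with 47 genes, of which 43 were on the array and 37 were tested. Of the 37, 3 were higher in MP amacrine and 1 in MP bipolar cells, beside 6.54% and 6.92% of all tested genes, and the median log2 fold change was 0.07. The called genes were cell-surface partners and 1 kinase. The other netrin genes held no call: Ntn5 was at 64.41 and 53.81 in MP amacrine and 58.43 and 74.54 in MP bipolar cells (adjusted p = 0.786, limma), and Ntn3 was too dim.

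Of the 4 tested genes listed as other netrin-binding receptors, 1 was called in each direction. Over all tested genes 6.54% were called higher in MP amacrine and 6.92% in MP bipolar cells. Netrin binding by the listed genes, Dscaml1 among them, was not measured here. Dscam, a homophilic adhesion molecule that also binds netrin and spaces amacrine cells in the mouse retina, had 790.3 and 803 on the MP amacrine arrays, against 240.6 and 153.7 on the MP bipolar arrays. The difference, 1.96 on the log2 scale (SE 0.26), passed (adjusted p = 0.00181, limma), and all 3 of its tested probe sets were called in this direction. Its relative Dscaml1 went the other way, with 1542 and 1494 in MP amacrine and 3598 and 3900 in MP bipolar cells (log2 fold change -1.29, SE 0.12, adjusted p = 0.000349, limma), and both tested probe sets were called. The dimmer of these entered the test only through the MP bipolar arrays, where it is higher. With the mean of all 5 Dscaml1 probe sets, 3 of them too dim to test, the log2 fold change was -0.477 and the call was lost (adjusted p = 0.0951, limma). The integrin genes Itga3 and Itga6 did not pass (adjusted p = 0.0925 and 0.172, limma).

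Of the netrin-G ligands, Lrrc4, the partner of Ntng2, was higher in MP amacrine cells, with 118.5 and 84.53 against 29.98 and 29.62 in MP bipolar cells. Its log2 fold change was 1.34 (SE 0.22, adjusted p = 0.00551, limma). Lrrc4 entered the test only through the MP amacrine arrays, where it is high, and with no filter its adjusted p was 0.0501. Ntng2 itself was below the array median in both populations. Lrrc4c, the partner of Ntng1, had 95.4 and 183.1 in MP amacrine and 150.4 and 164.7 in MP bipolar cells, which overlap (log2 fold change -0.22, 95% interval -0.91 to 0.47).

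Among the other ligands of netrin receptors, 0 of 4 tested genes passed at an adjusted p under 0.05 in limma, while 3 of them, Draxin, Flrt2 and Flrt3, had an unadjusted p under 0.05, as had 24.7% of all tested genes. Flrt3, a ligand of Unc5 receptors, had 652.3 and 746.6 in MP amacrine and 933.4 and 1009 in MP bipolar cells (log2 fold change -0.47, adjusted p = 0.185, limma). Flrt2, the ligand of Unc5d, had 57.62 and 50.11 in MP amacrine and 18.14 and 32.64 in MP bipolar cells (log2 fold change 0.78, adjusted p = 0.0754, limma). Flrt2 entered the test only through the MP amacrine arrays, where it is higher. Neither ligand passed, and their values are given beside those of Unc5d with no test of a relation. Draxin, a secreted antagonist that binds Dcc and netrin, had 103.1 and 94.37 in MP amacrine and 73.99 and 57 in MP bipolar cells (adjusted p = 0.2, limma).

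Inside the cell, Dapk1, a death-associated kinase linked to Unc5 signalling, had 612.8 and 494.7 in MP amacrine and 327.9 and 217.5 in MP bipolar cells (SE of the log2 difference 0.27, adjusted p = 0.0449, limma), so that the MP amacrine mean was 2.03 times the MP bipolar mean. It was the 1 call among 9 tested kinases and adaptors, and it was lost in 8 of 17 alternatives, among them the omission of MP amacrine replicate 1 (adjusted p = 0.112), of MP amacrine replicate 2 (adjusted p = 0.0606) and of MP bipolar replicate 2 (adjusted p = 0.304). Of 6 tested genes for shedding and turnover of the receptors, 0 passed in limma, with 2 at an unadjusted p under 0.05, near the 24.7% of all tested genes. Each of these 2 entered the test only through the population where it is higher, which favours a low p, so nothing is read from this count. The brightest of the 6, the sheddase Adam10, had 1863 and 1767 in MP amacrine and 1841 and 1423 in MP bipolar cells. Of 11 tested cytoskeletal effectors, 0 passed in limma, with 3 at an unadjusted p under 0.05, also near 24.7%, and the GTPase Cdc42 had 2336 and 1788 in MP amacrine and 2284 and 2468 in MP bipolar cells (log2 fold change -0.21, 95% interval -0.59 to 0.16).

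**Figure D4:**
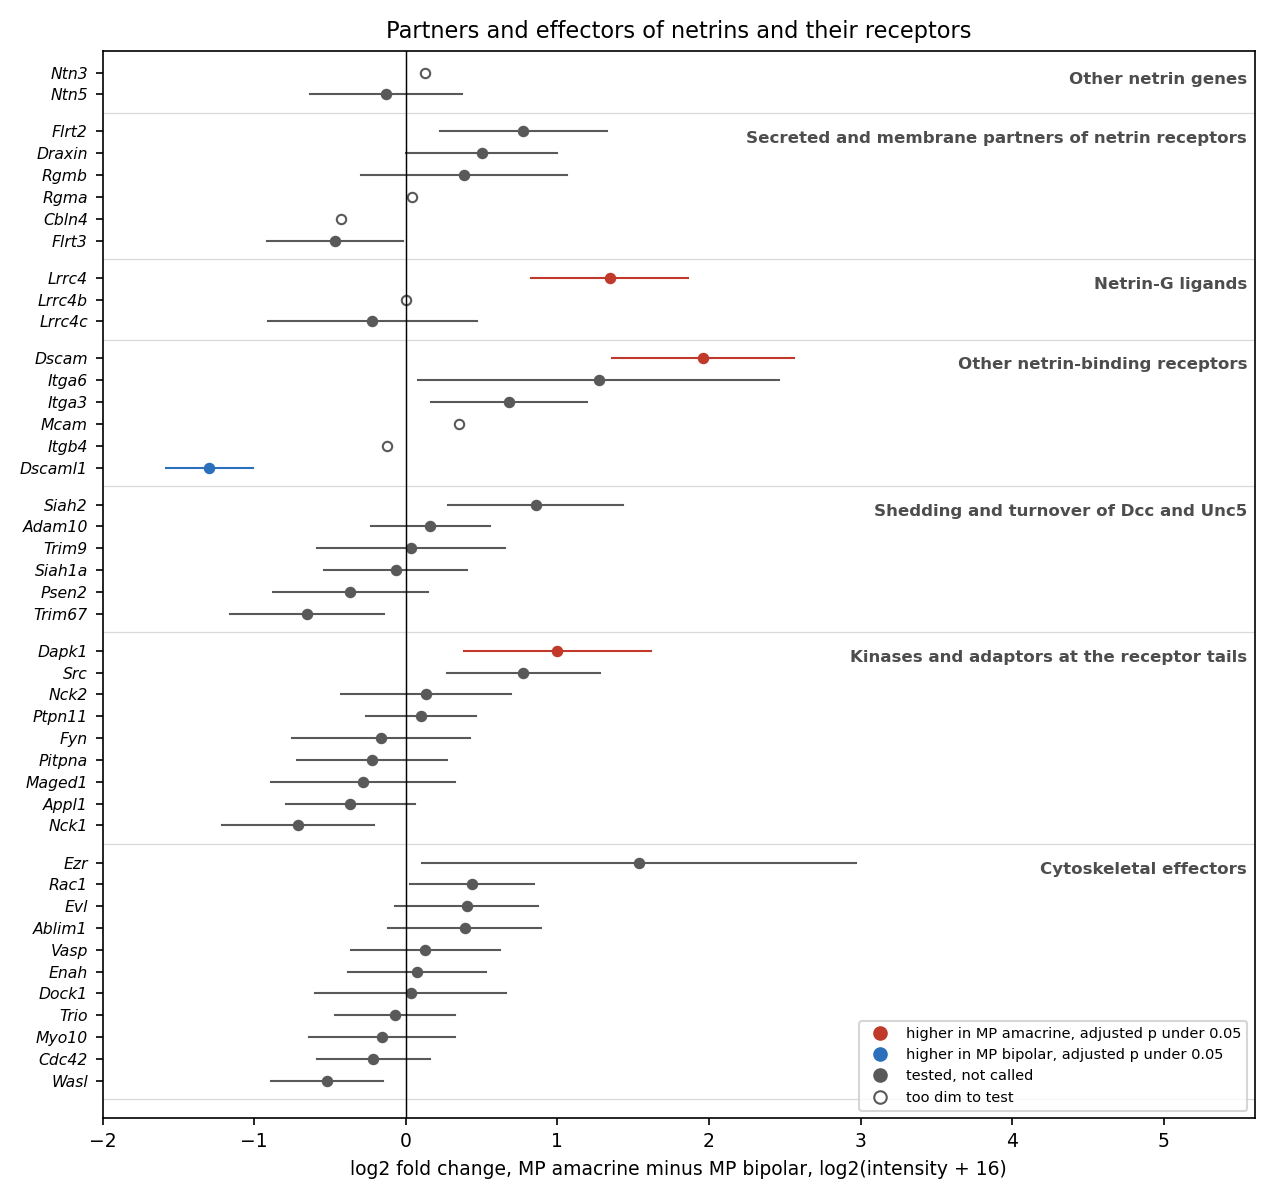
Log2 fold change, MP amacrine minus MP bipolar, of 43 partner and effector genes by list, with 95% intervals for the 37 tested ones. Dscam, Lrrc4 and Dapk1 are the genes called higher in MP amacrine cells and Dscaml1 is the one called higher in MP bipolar cells.

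The genes nearest to Unc5d and Ntn4 were found by Euclidean distance of the log2(intensity + 16) values over the 4 arrays, among 11583 tested genes. Nearest to Unc5d were Nek9 (distance 0.132), Prune2 (0.177) and Tenm3 (0.221), with log2 fold changes of -1.24, -1.25 and -1.41. Nearest to Ntn4 were Grem1 (distance 0.294), Accs (0.325) and Galc (0.328), with log2 fold changes of 0.90, 1.12 and 1.05. With 2 arrays per group, such closeness says only that these probe sets gave like intensities here.

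**Figure D5:**
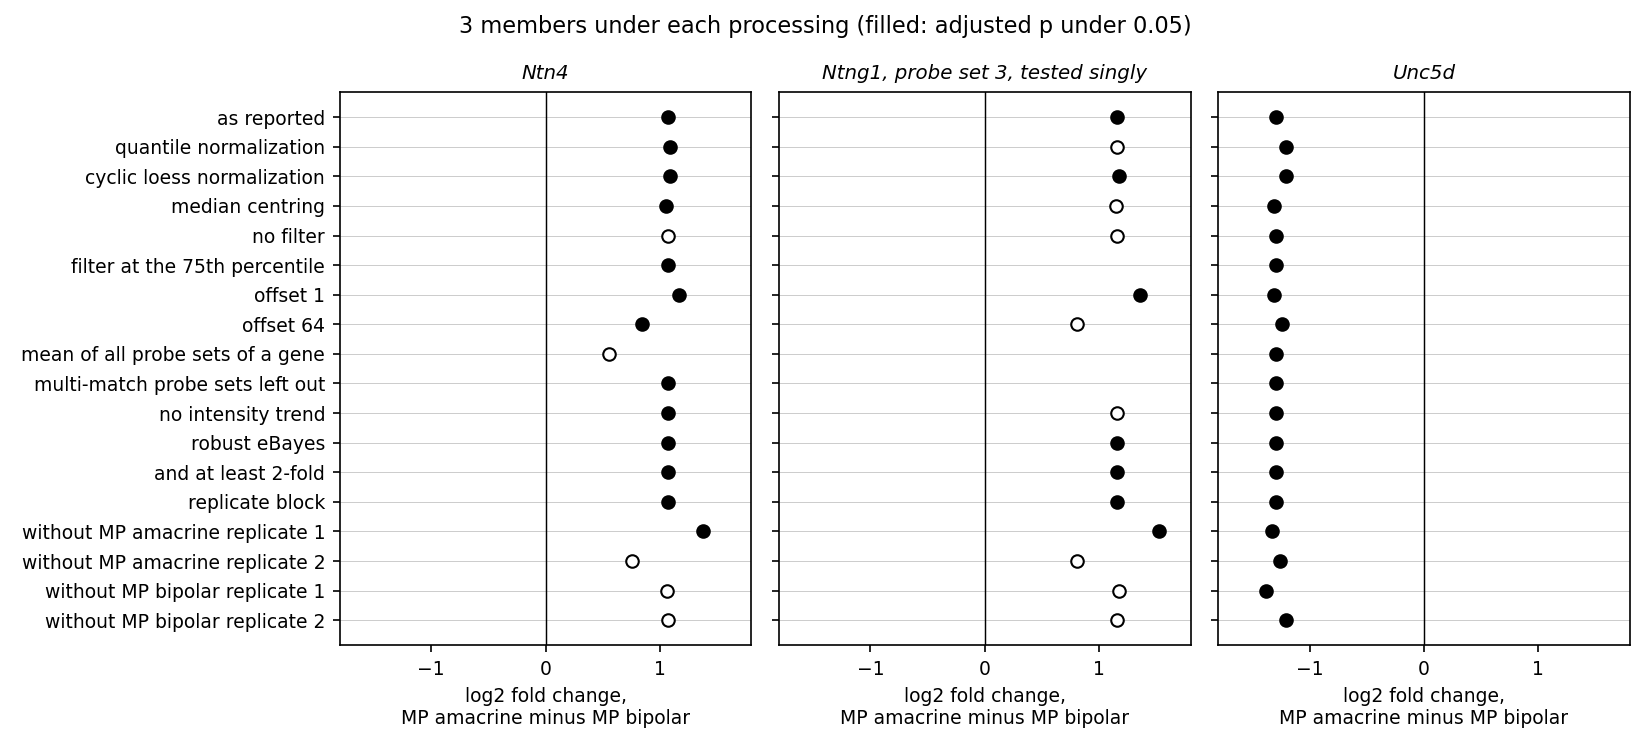
Log2 fold change, MP amacrine minus MP bipolar, of Ntn4, Ntng1 probe set 3 and Unc5d as reported and under each other processing; filled points have an adjusted p under 0.05 in that analysis. Unc5d is filled throughout, between -1.38 and -1.21, while Ntn4 is open in 5 analyses: without MP amacrine replicate 2, without either MP bipolar array, with no filter, and with the mean of all probe sets of a gene.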

How the data were processed

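The authors deposited linear intensities of 45101 probe sets on 4 arrays; the sources used here do not name the software that summarised and scaled them. RNA was extracted with the PicoPure kit and amplified in 2 rounds before biotin labelling, per the labels' protocols. The 64 control probe sets were left out. Per the platform annotation, 34945 probe sets have 1 gene, 932 several and 9160 none listed, and a RefSeq table changed 0 symbols. Values were used as log2(intensity + 16). The table has no detection calls, so the array median served as the filter, which left 11583 genes, 6610 being too dim; 23648 probe sets were tested singly.

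Both populations were compared with limma 3.58.1, run in R 4.3.3 (lmFit, eBayes with an intensity trend, 2 residual degrees of freedom), two-sided, Benjamini-Hochberg adjusted over all tested features. The gene test was also run on simulated data with 200 of 11583 genes changed per run. Errors were independent and normal, with variances drawn from the distribution that limma fitted to these arrays. It recovered 24.5% of genes with a log2 change of 1 and 95.6% of those with a change of 2, and 4.98% of the calls were false. A false share near the threshold is built into such a simulation, so it does not measure the false calls in these data. In the data 1559 genes were called, so the cutoff differs and the recovered shares need not hold there. All members were named, as were up to 4 called genes per partner list, or the brightest tested gene where none was called, and the 3 genes nearest to 2 members. Itga3, Itga6, Ezr, Draxin, Flrt2, Lrrc4c, Ntn3 and the marker genes were named after their values were seen. The members, lists and tests were chosen with earlier results of these data known. Same-numbered replicates did not deviate together (correlation across genes -0.0415). Alternatives were 3 scalings, 2 filters, 2 offsets, other probe set choices and variance moderation, a fold threshold, the replicate block and each array left out. No sequence is shown.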

Additional observations from a re-analysis of the deposited data

How the results depend on the processing

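No called member changed sign in any alternative. With no filter on dim probe sets the number of genes called was 785 in place of 1559, of members 1, of member probe sets 1 and of partners 2; Ntng1 probe set 3 then had an adjusted p of 0.204 and Lrrc4 of 0.0501 (limma). With each array left out in turn, the genes called ranged from 917 (without MP bipolar replicate 2) to 1939, the members called from 1 to 2, the member probe sets called from 0 to 3, and 4 partners were called each time, though not the same ones: Dscam, Dscaml1 and Lrrc4 were always among them, and in place of Dapk1 the call fell to Itga3 without MP amacrine replicate 1, Ezr without MP amacrine replicate 2 and Itga6 without MP bipolar replicate 2. With the mean of all probe sets of a gene, 1 member (Unc5d) and 1 partner (Dscam) were called. Of the member probe sets, 1 was called after quantile normalization, 1 after median centring, 1 with an offset of 64 and 1 without an intensity trend. Ntng1 probe set 3 had an adjusted p of 0.0532, 0.0503, 0.0566 and 0.0569 (limma) in these. Over the alternatives Ntn4 kept an adjusted p between 0.00604 and 0.153 and Dapk1 between 0.0104 and 0.304. The labels do not say that replicate numbers pair samples; with the replicate block 8 partners, 2 members and 1932 genes were called. Of 166 values of the member genes in alternatives, 158 kept direction and side of the threshold or moved less than the replicate spread, and 5, all of Ntn4, lost the call. The causes were not tested. Signal over background limits Ntng2, Unc5a and Unc5c, and the values of Ntng2 and Unc5a depend on the offset.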
